A study of Caenorhabditis elegans with 15 samples.

Results

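Chitinases, chitinase-like proteins and the pharyngeal chitin synthase form a group of *C. elegans* genes whose products make chitin, cut it, or resemble the enzymes that cut it. The members were the genes with a symbol *cht-* or *chil-* plus a number, together with *chs-2*, each read from its single-gene probe set with the highest mean over the arrays. There were 32 members among the 17118 genes read in this way, namely 6 *cht* genes, 25 *chil* genes and *chs-2*. The gene table holds 35 genes of these names. Of the other 3, *chil-19* and *chil-21* were named only on a probe set of several genes and *chil-25* was not named on any probe set. The rule uses gene symbols, with the mean level only to pick a probe set, and it was written with earlier results of these data known. RNA came from pools of 20 wild-type N2 Bristol hermaphrodites fed the bacterial strain DA837, with 5 arrays at each of 3 stages and 15 arrays in all. L4 animals, the last larval stage, were moving and feeding and were taken 42 h after arrested L1 larvae had been fed. L4-lethargus animals, in the quiescence that closes the larval stage at the molt, were taken at 45 to 50 h and 30 to 40 min into the arrest of pharyngeal pumping. Adult animals were young adults of an age that these sources do not state. All 3 groups share strain, food, culture at 20 °C and hand collection at 22.5 °C, and every value comes from whole animals.

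Chitin is a polymer of N-acetylglucosamine. In nematodes it is known from the eggshell and from the pharynx, and the body cuticle is built mainly of collagen. *chs-1* encodes the synthase of the eggshell and *chs-2* that of the pharynx, whose cuticle is renewed at each molt while feeding stops. Chitinases of glycoside hydrolase family 18 cut chitin into short oligomers, which β-hexosaminidases break down further. The *chil* genes encode proteins that resemble these chitinases and, for several of them, their activity on chitin is not established. *chil-27* and *chil-28* are known as genes induced when *C. elegans* senses oomycetes.

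Values are log2 expression levels made by robust multi-array averaging (RMA), so a difference of 1 is a 2-fold change. They can be compared between stages for a gene, and they say nothing about which of 2 genes is more abundant. A level counts as above background when it exceeds 5.563 log2, a bound set at the 95th percentile of the signal of 32 controls for bacterial and yeast genes. Differences were tested with limma over all 22548 probe sets other than controls. A difference is called where the Benjamini-Hochberg adjusted p was 0.05 or less after each p had been doubled. The series design compares lethargus with each other stage and doubles p-values. For Adult against L4, p-values were doubled here in the same way. A fold is written "at least" where an array of the dimmer stage lay at or under the bound and was set to it. An SD over a stage's 5 arrays follows each ±, and arrays are listed in the order of their replicate numbers. Array medians were 7.47 ± 0.05 in L4, 7.51 ± 0.02 in L4-lethargus and 7.26 ± 0.04 in Adult, arrays of a stage correlated at 0.983 to 0.997, and the labels give RNA yields of 22.3 ± 7 ng, 18.6 ± 3.5 ng and 75.3 ± 10.3 ng per pool for L4, L4-lethargus and Adult. In pooled whole animals, fewer cells of a type and less RNA per cell cannot be told apart. The labels number animal pools, which serve as the replicates, and p-values cover only the variation among those pools.

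Of the 32 members, 15 were above background on at least 1 array, namely all 6 *cht* genes, *chs-2* and 8 of 25 *chil* genes. The other 17, all *chil* genes, were above it on none, whereas 76% of all genes (13004 of 17118) passed on at least 1 array. Calls were made for 20 members, 12 of them above background, and 12 members had no call in any comparison. In L4-lethargus against L4, 4 members were higher, 4 were lower and 24 were not called. That is 25% of the members, where 30.9% of all probe sets were called (15.6% higher and 15.3% lower). In L4-lethargus against Adult, 3 were higher and 5 lower, again 25% of the members, where 57.0% of all probe sets were called (25.3% higher and 31.7% lower). In Adult against L4, 10 were higher and 7 lower, 53.1% of the members, where 59.4% of all probe sets were called (31.4% higher and 28.0% lower). These shares can be split by background as a description only, since a gene can pass the bound through 1 high stage alone. Of the 15 above it, 6 (40%) were called in L4-lethargus against L4, 6 (40%) in L4-lethargus against Adult and 11 (73.3%) in Adult against L4, and of the 17 below it, 2 (11.8%), 2 (11.8%) and 6 (35.3%) were. The median log2 difference of all 32 members was 0.07 in L4-lethargus minus L4, -0.12 in L4-lethargus minus Adult and 0.21 in Adult minus L4, where over all probe sets it was -0.0018, -0.09 and 0.08. For the 15 above background it was -0.04, -0.14 and -0.35 in these comparisons, and for the 17 below it 0.07, -0.12 and 0.24, so that the signs differ in L4-lethargus minus L4 and in Adult minus L4. The counts depend on how arrays are scaled. With each array centred on its own median, 3 members were called higher and 19 lower in L4-lethargus against Adult, and 21 higher and 4 lower in Adult against L4. With quantile normalization repeated, the split in Adult against L4 was 8 higher and 4 lower. It was 3 higher and 5 lower in L4-lethargus against L4. With cyclic loess, 7 were higher and 7 lower in Adult against L4, 5 higher and 4 lower in L4-lethargus against L4, and 3 higher and 4 lower in L4-lethargus against Adult. Median-centring also moved the median of all probe sets, to -0.34 in L4-lethargus minus Adult and 0.29 in Adult minus L4. Calls over all probe sets rose as well in these comparisons under that scaling. In L4-lethargus against Adult, members called went from 8 to 22 of 32. As a share of each set, the rise was larger for the members than for all probe sets in both comparisons. Whether it is particular to the members was not tested. Without L4 replicate 2, 5 members were called in L4-lethargus against L4, 2 of them higher. Without L4-lethargus replicate 1 the higher calls there were 7, and without L4-lethargus replicate 3 they were 2. The 3 comparisons share the arrays of a stage in pairs and are not independent of each other.

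**Figure D1:**
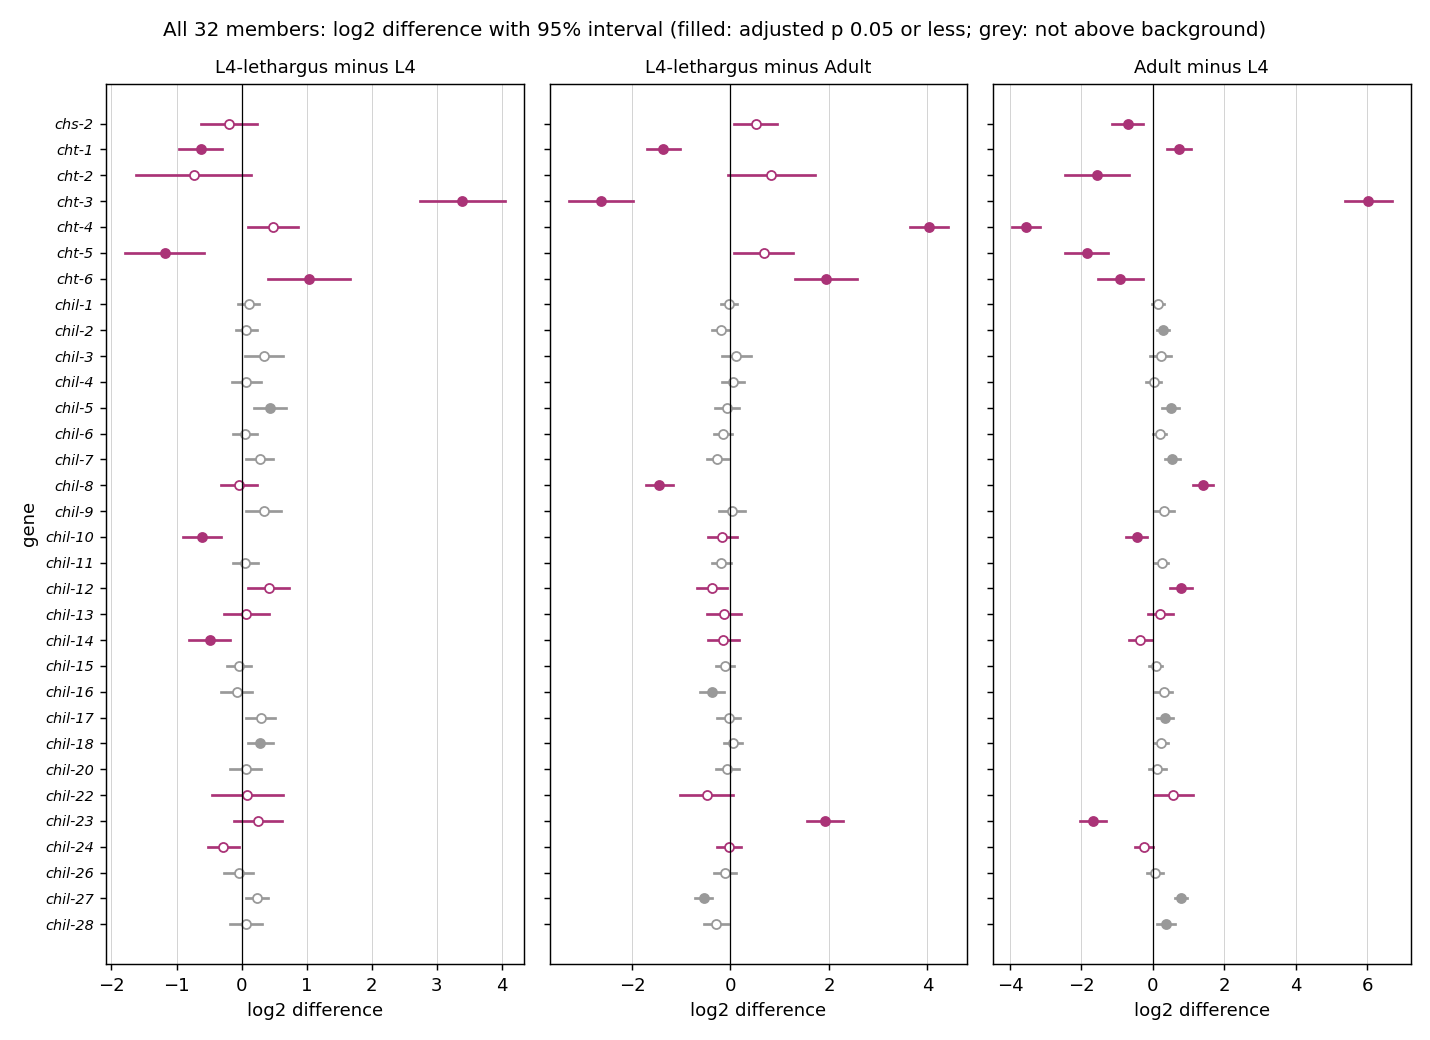
Log2 difference (x axis) of each of the 32 members (rows) in L4-lethargus minus L4, L4-lethargus minus Adult and Adult minus L4, with lines for the 95% interval from limma. Filled points passed at an adjusted p of 0.05 or less, and grey points are members not above background on any array. The largest differences are those of *cht-3* and *cht-4*, and the largest among the *chil* genes are those of *chil-23* and *chil-8*.

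*chs-2*, the chitin synthase of the pharynx, was lower in Adult than in L4. Its log2 levels were 6.91, 6.88, 7.55, 7.02 and 7.32 in L4, 7.83, 6.48, 6.97, 6.70 and 6.73 in L4-lethargus, and 6.25, 6.58, 6.40, 6.46 and 6.47 in Adult. Adult arrays all lay below every L4 array, whereas the L4-lethargus arrays ran from below L4 to above it, with replicate 1 the highest of all 15 arrays. The mean was 6.43 ± 0.12 in Adult and 7.13 ± 0.29 in L4, a difference of -0.70 (SE 0.20, adjusted p = 0.0123) or 1.63-fold lower in Adult. That call was lost with each array centred on its median (adjusted p = 0.0693) and with quantile normalization repeated (adjusted p = 0.0729). No difference was called in L4-lethargus minus L4, at -0.19 (adjusted p = 1) with a 95% interval of -0.62 to 0.24, or in L4-lethargus minus Adult, at 0.51 (adjusted p = 0.076) with an interval of 0.08 to 0.94. The last passed without L4-lethargus replicate 2 (adjusted p = 0.03). The pharyngeal muscle markers *myo-1*, *myo-2* and *ceh-22* had a mean log2 level of 6.81 to 7.42 over the L4 arrays, 7.07 to 8.08 over the L4-lethargus arrays and 6.79 to 7.55 over the Adult arrays. *ceh-22* was above background on 0 of 15 arrays. Of these 3 genes, *myo-2* was called higher in L4-lethargus than in L4 and than in Adult, and none was called in Adult against L4. Their part in the *chs-2* values was not tested. The probe set of *chs-2* is one that can share probes with other transcripts.

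Among the 6 chitinases, *cht-3* and *cht-4* changed most and in opposite directions. *cht-3* was higher in L4-lethargus than in L4 and higher again in Adult, and *cht-4* was lower in Adult than in both other stages. For L4-lethargus against L4, *cht-3* and *cht-6* were called higher, *cht-1* and *cht-5* lower, and *cht-2* and *cht-4* were not called. In L4-lethargus against Adult, *cht-4* and *cht-6* were higher and *cht-3* and *cht-1* lower. In Adult against L4, *cht-3* and *cht-1* were higher and *cht-2*, *cht-4*, *cht-5* and *cht-6* were lower.

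The log2 levels of *cht-3* were 4.98, 5.21, 6.31, 6.10 and 4.31 in L4, 8.11, 8.87, 8.68, 9.33 and 8.88 in L4-lethargus, and 11.27, 11.75, 11.44, 11.23 and 11.33 in Adult. The 3 stages did not overlap, and only replicates 3 and 4 of L4 were above background. Its mean was 8.77 ± 0.44 in L4-lethargus and 5.38 ± 0.82 in L4, a difference of 3.39 (SE 0.31, adjusted p = 3.96e-07), at least 7.75-fold. L4-lethargus minus Adult gave -2.63 (SE 0.31, adjusted p = 3.12e-06), 6.19-fold lower in L4-lethargus, against a mean of 11.40 ± 0.21 in Adult. The Adult level was at least 47.9-fold higher than that of L4, a log2 difference of 6.02 (SE 0.31, adjusted p = 1.24e-10) and the widest of all members. These 3 calls were kept under every alternative setting tried. The oocyte and eggshell markers *oma-1*, *oma-2*, *perm-2* and *perm-4* were above background on every array and moved in the same order of stages. Their mean log2 level was 7.60 to 8.83 over the L4 arrays, 10.06 to 10.85 over the L4-lethargus arrays and 11.90 to 11.98 over the Adult arrays, and 4 of 4 were called in each comparison. The Adult epidermis and yolk markers *col-19*, *vit-2*, *vit-5* and *vit-6* ran from 8.44 to 9.32 in L4, from 12.98 to 13.26 in L4-lethargus and from 13.41 to 13.62 in Adult. All 4 were called higher in L4-lethargus and in Adult than in L4. In L4-lethargus against Adult, only *vit-5* was called, and it was lower. The part of either list in the *cht-3* result was not tested.

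*cht-4* had log2 levels of 8.95, 9.01, 9.78, 9.88 and 9.78 in L4, 10.12, 10.05, 9.99, 9.66 and 9.98 in L4-lethargus, and 6.24, 5.67, 6.01, 5.70 and 6.00 in Adult. The Adult arrays all lay below those of the other stages, and the L4 and L4-lethargus arrays overlapped, with L4 replicates 1 and 2 the lowest of them. Its mean was 9.96 ± 0.18 in L4-lethargus and 5.92 ± 0.24 in Adult, a difference of 4.04 (SE 0.18, adjusted p = 4.7e-11) or 16.4-fold. Adult minus L4 was -3.56 (SE 0.18, adjusted p = 1.18e-10), 11.8-fold lower in Adult, and these calls were kept under every alternative setting. L4-lethargus minus L4 was 0.48 (adjusted p = 0.0986) with a 95% interval of 0.10 to 0.87. That difference passed in 2 of 24 alternatives, with p-values not doubled (adjusted p = 0.0493) and without L4 replicate 4 (adjusted p = 0.0474). The intestinal markers *ges-1*, *elt-2*, *ifb-2* and *act-5* were above background on every array. Their mean was 10.89 to 11.06 in L4, 10.96 to 11.02 in L4-lethargus and 9.76 to 9.94 in Adult, and 4 of 4 were lower in Adult than in L4 and higher in L4-lethargus than in Adult. In L4-lethargus against L4, *ifb-2* was called higher (adjusted p = 0.00035) and *elt-2* lower (adjusted p = 0.0404). Of the 3 sperm markers measured (*spe-9*, *spe-11* and *spe-41*), 2 were lower in Adult than in L4. In L4-lethargus, 2 were lower than in L4 and 2 higher than in Adult. The part of either list in the *cht-4* result was not tested.

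For *cht-6* the log2 levels were 6.67, 5.72, 7.60, 6.56 and 6.84 in L4, 8.48, 7.31, 8.25, 7.23 and 7.31 in L4-lethargus, and 5.66, 6.09, 5.67, 5.70 and 5.72 in Adult. L4-lethargus lay above all Adult arrays, and its replicates 1 and 3 exceeded every L4 array. The mean was 7.72 ± 0.60 in L4-lethargus and 5.77 ± 0.18 in Adult, a difference of 1.95 (SE 0.30, adjusted p = 5.21e-05) or 3.86-fold, which was called in all 24 alternatives. Against the L4 mean of 6.68 ± 0.67, the L4-lethargus difference was 1.04 (SE 0.30, adjusted p = 0.0228). It missed the threshold in a fit of those 2 stages alone (adjusted p = 0.0683) and without L4 replicate 2 (0.0607), L4 replicate 4 (0.0525), L4-lethargus replicate 1 (0.0601) or L4-lethargus replicate 3 (0.0711, all adjusted p). Adult minus L4 was -0.91 (SE 0.30, adjusted p = 0.0269), a call lost with median-centring (adjusted p = 0.0731), with quantile normalization repeated (0.0621), and without any one of L4 replicates 3 and 5 and Adult replicates 1, 3, 4 and 5 (0.0521 to 0.0779, adjusted p).

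*cht-5* levels were 6.84, 5.95, 7.14, 7.34 and 7.94 in L4, 6.42, 5.35, 5.97, 5.93 and 5.64 in L4-lethargus, and 5.16, 5.48, 5.41, 4.79 and 5.09 in Adult. Every Adult array was under the background bound, 4 of 5 L4-lethargus arrays were above it, and all L4 arrays were. Mean levels were 7.04 ± 0.73 in L4, 5.86 ± 0.40 in L4-lethargus, and 5.19 ± 0.27 in Adult. L4-lethargus was lower than L4 by a log2 difference of -1.18 (SE 0.28, adjusted p = 0.00711), and Adult minus L4 was -1.86 (SE 0.28, adjusted p = 4.76e-05), or at least 2.79-fold lower in Adult. L4-lethargus minus Adult was 0.67 (adjusted p = 0.0989) and did not pass, except in a fit of those 2 stages alone (adjusted p = 0.0151), with p-values not doubled (0.0495) and without L4 replicate 2 (0.0253). The calls of *cht-5* were kept under every alternative that tested it. The molting epidermis markers *mlt-10*, *noah-1*, *noah-2*, *ptr-4* and *dpy-7* had a mean of 10.87 to 11.66 in L4, 6.01 to 7.35 in L4-lethargus and 5.78 to 6.02 in Adult. *mlt-10* and *ptr-4* were above background on 0 of 5 Adult arrays, all 5 genes were lower in L4-lethargus than in L4, and all 5 were lower in Adult than in L4. In L4-lethargus against Adult, 2 of the 5 were called higher and 0 lower. Their part in the *cht-5* result was not tested.

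*cht-1* was lowest in L4-lethargus. Its levels were 6.08, 5.85, 6.21, 6.16 and 6.99 in L4, 5.62, 5.55, 5.59, 5.56 and 5.82 in L4-lethargus, and 6.87, 6.98, 6.92, 7.13 and 7.05 in Adult. The L4-lethargus arrays lay below every array of the other stages, with 3 of 5 above background. Means were 6.26 ± 0.43 in L4, 5.63 ± 0.11 in L4-lethargus, and 6.99 ± 0.10 in Adult. The L4-lethargus minus L4 difference was -0.63 (SE 0.15, adjusted p = 0.00819), at least 1.55-fold lower in L4-lethargus. L4-lethargus minus Adult was -1.36 (SE 0.15, adjusted p = 2.18e-06), at least 2.57-fold lower in L4-lethargus, and Adult minus L4 was 0.73 (SE 0.15, adjusted p = 0.00115), 1.66-fold higher in Adult. All 3 calls were kept under every alternative that tested it. Both probe sets of this gene can share probes with other transcripts. The dimmer one gave -0.49 (adjusted p = 0.0292) in L4-lethargus minus L4, -1.40 (adjusted p = 8.59e-07) in L4-lethargus minus Adult and 0.91 (adjusted p = 8.05e-05) in Adult minus L4, each of the same sign.

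*cht-2* had levels of 5.30, 4.25, 6.20, 5.92 and 6.91 in L4, 6.26, 4.45, 5.12, 4.30 and 4.76 in L4-lethargus, and 3.86, 4.44, 4.34, 4.33 and 3.76 in Adult. It was above background on 3 of 5 L4 arrays, 1 of 5 L4-lethargus arrays and 0 of 5 Adult arrays, with L4 replicate 2 as low as the Adult arrays. It was lower in Adult, with a mean of 4.15 ± 0.31, than in L4, with 5.72 ± 1.00. The difference was -1.57 (SE 0.42, adjusted p = 0.00737), at least 1.11-fold by the bound, and its call was kept under every alternative that tested the gene. L4-lethargus minus L4 was -0.74 (adjusted p = 0.393) and L4-lethargus minus Adult 0.83 (adjusted p = 0.194). *cht-5* also had a second probe set, with -0.96 (adjusted p = 0.0164) in L4-lethargus minus L4, 0.23 (adjusted p = 0.917) in L4-lethargus minus Adult and -1.19 (adjusted p = 0.00153) in Adult minus L4, the same signs and calls as the first.

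**Figure D2:**
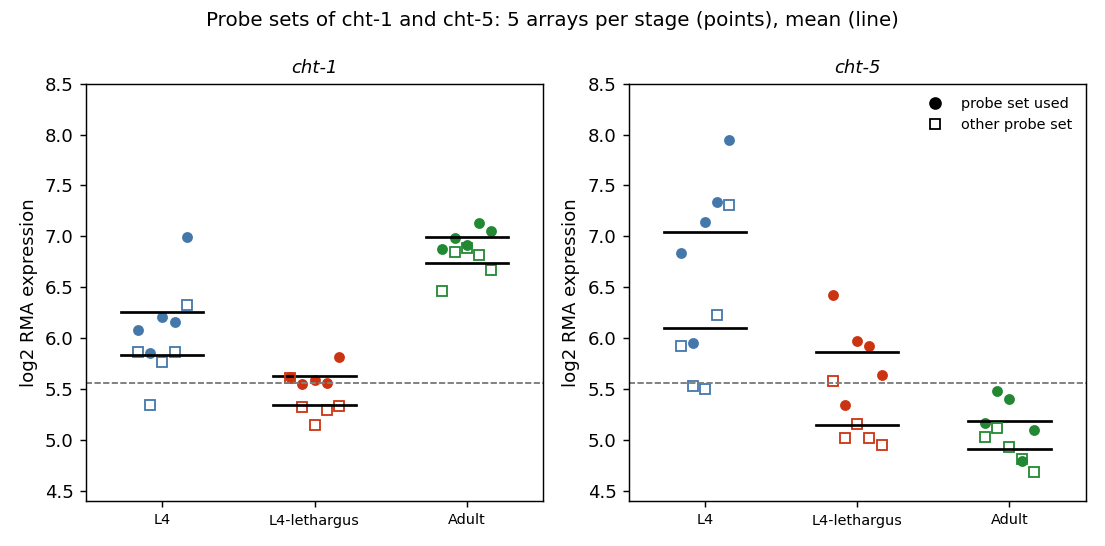
Log2 RMA expression (y axis) of *cht-1* and *cht-5* in the 5 arrays of L4, L4-lethargus and Adult (x axis) from the probe set used (filled circles) and from the other probe set of each gene (open squares). Lines are means, and the dashed line is the background bound of 5.563. Both probe sets place *cht-1* lowest in L4-lethargus and *cht-5* highest in L4.

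Of the 8 *chil* genes above background, 5 had a call in at least 1 comparison and 3 had none. *chil-23* was lower in Adult, *chil-8* and *chil-12* were higher in Adult than in L4, and *chil-10* and *chil-14* were lower in L4-lethargus than in L4. Against L4, L4-lethargus had 0 of these 8 genes higher and 2 lower. In L4-lethargus against Adult, 1 was higher and 1 lower, and in Adult against L4, 2 were higher and 2 lower. Those are 25%, 25% and 50% of the 8, where 30.9%, 57.0% and 59.4% of all probe sets were called. The 8 were selected by level, and *chil-8* passed the bound on Adult arrays only.

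*chil-23* log2 levels were 6.71, 6.17, 7.03, 7.02 and 6.83 in L4, 6.98, 6.65, 7.16, 7.40 and 6.84 in L4-lethargus, and 4.91, 5.46, 4.83, 5.01 and 5.20 in Adult. The Adult arrays were all under the background bound, and all 10 arrays of the other stages were above it. The mean was 7.01 ± 0.29 in L4-lethargus and 5.08 ± 0.25 in Adult, a difference of 1.93 (SE 0.17, adjusted p = 1.56e-07) or at least 2.72-fold. Adult minus L4 was -1.67 (SE 0.17, adjusted p = 5.63e-07), at least 2.28-fold lower in Adult, against a mean of 6.75 ± 0.35 in L4. The L4-lethargus minus L4 difference was 0.25 (adjusted p = 0.591). The levels of *chil-8* were 4.98, 5.53, 5.29, 4.97 and 5.23 in L4, 4.83, 5.27, 5.05, 5.18 and 5.44 in L4-lethargus, and 6.57, 6.76, 6.81, 6.43 and 6.44 in Adult. *chil-8* was above background on 5 of 5 Adult arrays and on 0 of 10 others, the reverse pattern. Adult minus L4 was 1.40 (SE 0.13, adjusted p = 1.44e-07), at least 2.06-fold, and L4-lethargus minus Adult was -1.45 (SE 0.13, adjusted p = 1.47e-07), at least 2.06-fold lower in L4-lethargus. L4-lethargus minus L4 was -0.04 (adjusted p = 1), with both stages under the bound. The probe set of *chil-8* can share probes with other transcripts. The calls of both genes were kept under every alternative that tested them.

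*chil-12* levels were 5.40, 5.12, 5.14, 5.22 and 5.39 in L4, 5.40, 5.36, 6.16, 5.76 and 5.66 in L4-lethargus, and 5.93, 6.36, 6.23, 5.98 and 5.74 in Adult. They passed background on 0 of 5 L4 arrays, 3 of 5 L4-lethargus arrays and 5 of 5 Adult arrays. Adult was higher than L4 by 0.79 (SE 0.15, adjusted p = 0.000327), at least 1.4-fold by the bound, in every alternative that tested it. The L4-lethargus minus L4 difference was 0.41 (adjusted p = 0.0734) and L4-lethargus minus Adult -0.38 (adjusted p = 0.0678). The last passed under 5 of 23 alternatives, among them median-centring (log2 difference -0.63, adjusted p = 0.00204) and leaving out L4-lethargus replicate 3 (0.00725) or Adult replicate 5 (0.032). The first passed without L4-lethargus replicate 1 (0.0401) or 2 (0.0386, all adjusted p). *chil-10* was bright in every stage. Its levels were 8.81, 8.78, 8.41, 8.99 and 8.90 in L4, 8.59, 8.20, 8.18, 7.80 and 8.05 in L4-lethargus, and 8.11, 8.49, 8.51, 8.33 and 8.19 in Adult. Arrays of the 3 stages overlapped, with L4 replicate 3 the lowest of its stage and L4-lethargus replicate 1 the highest of its own. L4-lethargus minus L4 was -0.61 (SE 0.14, adjusted p = 0.00479), 1.53-fold lower in L4-lethargus, which held in all 24 alternatives. Adult minus L4 was -0.45 (SE 0.14, adjusted p = 0.0202), a call lost with median-centring (adjusted p = 0.301), quantile normalization repeated (0.103) and without L4 replicates 4 or 5 or Adult replicates 1 or 5 (0.0516 to 0.061, adjusted p). L4-lethargus minus Adult was -0.16 (adjusted p = 0.651) and passed only with median-centring (-0.42, adjusted p = 0.0358).

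*chil-14* had levels of 7.05, 7.24, 7.68, 7.17 and 6.99 in L4, 6.79, 6.68, 6.86, 6.77 and 6.58 in L4-lethargus, and 7.02, 7.38, 6.58, 6.64 and 6.76 in Adult. The L4-lethargus arrays lay below all L4 arrays, and Adult spanned both. The L4-lethargus minus L4 difference was -0.49 (SE 0.15, adjusted p = 0.0345), 1.4-fold lower in L4-lethargus. The call was lost without L4 replicate 2, 3 or 4 and without L4-lethargus replicate 2, 4 or 5 (adjusted p = 0.0563 to 0.0912). L4-lethargus minus Adult was -0.14 (adjusted p = 0.857), which passed only with median-centring (-0.40, adjusted p = 0.035). Adult minus L4 was -0.35 (adjusted p = 0.105), which passed without Adult replicate 2 (adjusted p = 0.0093). The 3 genes above background with no call were *chil-24*, *chil-13* and *chil-22*, chosen for their levels. Mean levels of *chil-24* were 7.79 ± 0.11 in L4, 7.51 ± 0.17 in L4-lethargus, and 7.53 ± 0.25 in Adult, those of *chil-13* were 7.39 ± 0.42 in L4, 7.47 ± 0.16 in L4-lethargus, and 7.60 ± 0.18 in Adult, and those of *chil-22* were 6.49 ± 0.44 in L4, 6.58 ± 0.60 in L4-lethargus, and 7.07 ± 0.27 in Adult. The Adult minus L4 difference of *chil-22* was 0.58 (adjusted p = 0.12) with a 95% interval of 0.03 to 1.12, and it passed under 3 of 24 alternatives, with median-centring at an adjusted p of 0.0222. Its L4-lethargus minus Adult difference passed with median-centring (adjusted p = 0.0307), with quantile normalization repeated (0.0459) and without L4-lethargus replicate 4 (0.025). Without Adult replicate 2, those of *chil-24* in L4-lethargus minus L4 (0.0484) and Adult minus L4 (0.0109) passed. The former also passed with quantile normalization repeated (0.0466). *chil-13* passed in Adult minus L4 with median-centring (0.0402, all adjusted p).

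**Figure D3:**
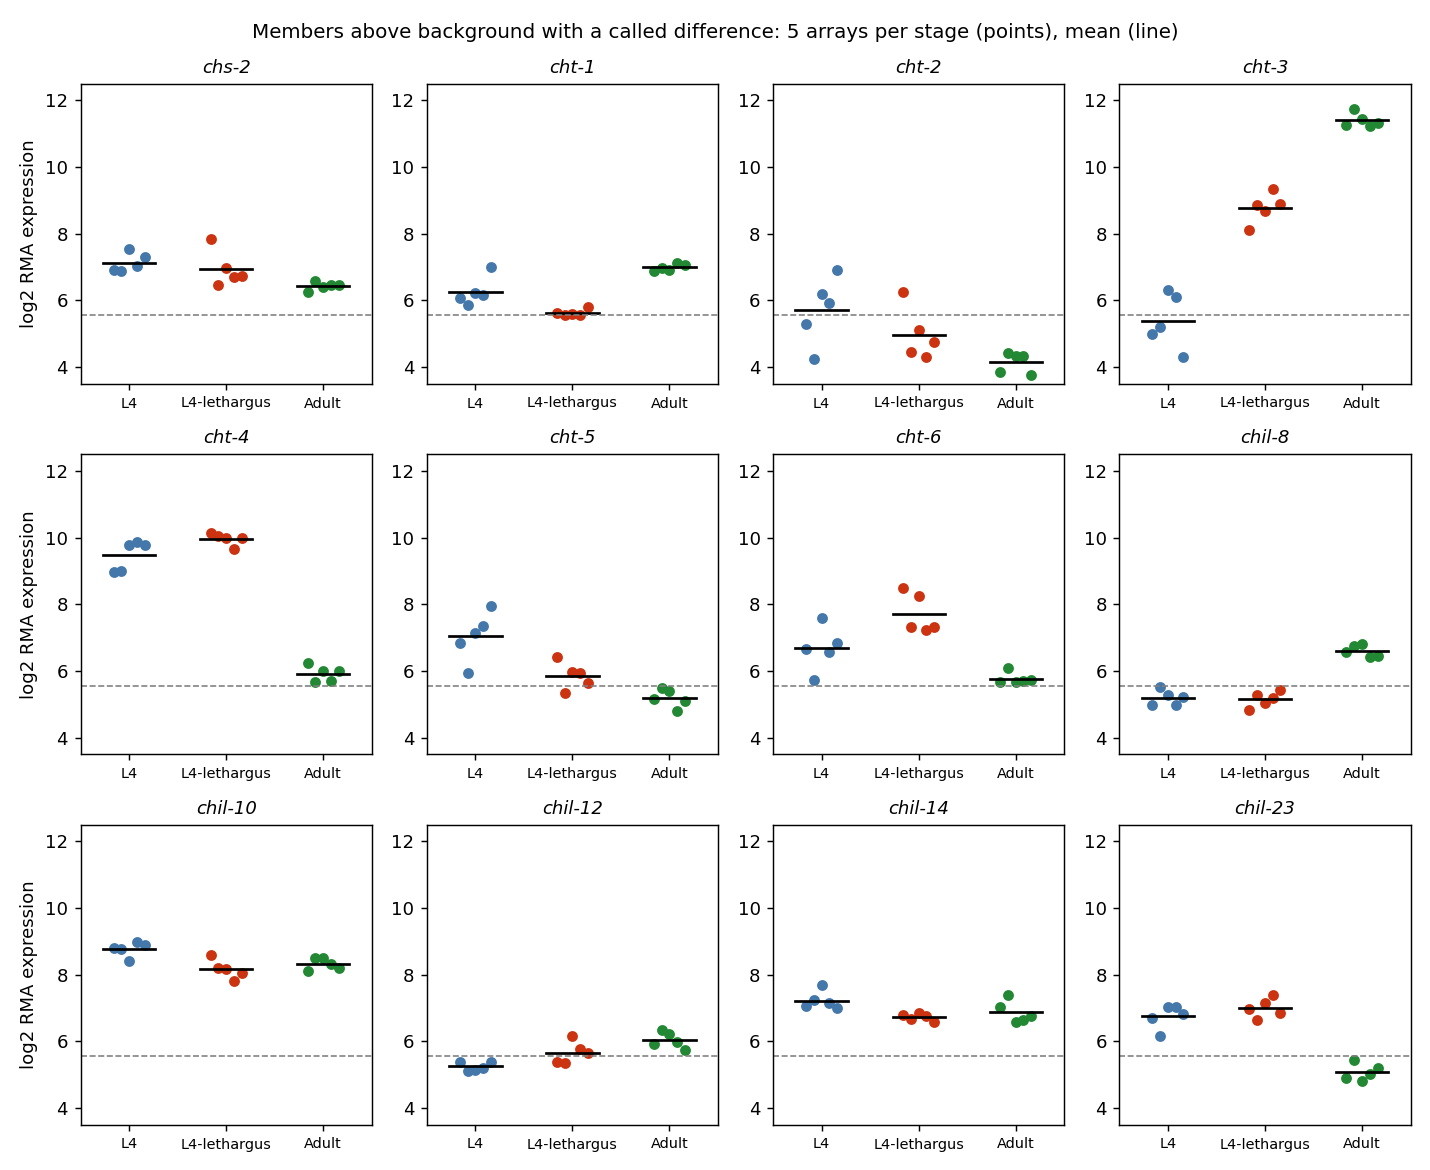
Log2 RMA expression (y axis, the same range in every panel) of *chs-2*, the 6 *cht* genes and 5 *chil* genes above background with a call, in the 5 arrays (points) of L4, L4-lethargus and Adult (x axis). Black lines are means and the dashed line is the background bound of 5.563. *cht-3* climbs over the 3 stages, *cht-4* and *chil-23* drop in Adult, *chil-8* exceeds the bound only in Adult, and *cht-1* is lowest in L4-lethargus.

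The 17 *chil* genes under the background bound on all arrays had stage means between 2.72 and 4.57 log2 in L4, 2.68 and 4.63 in L4-lethargus, and 2.80 and 4.81 in Adult. A level there is not well above background, so no fold is given, and a call says only that the signal of the probe set differed. Of these 17, 8 had a call. Against L4, L4-lethargus had 2 higher and 0 lower. In L4-lethargus against Adult, 0 were higher and 2 lower. In Adult against L4, 6 were higher and 0 lower, and 3 of those 6 (*chil-17*, *chil-28* and *chil-2*) lost their calls both with quantile normalization repeated (adjusted p = 0.0935, 0.0671 and 0.0781) and with cyclic loess (0.114, 0.1 and 0.202). *chil-27*, the oomycete response gene, was at 4.07, 3.91, 3.94, 4.17 and 4.05 in L4, 4.18, 4.35, 4.14, 4.37 and 4.28 in L4-lethargus, and 4.72, 4.95, 4.82, 4.91 and 4.65 in Adult, and its differences were -0.55 (adjusted p = 4.43e-05) in L4-lethargus minus Adult and 0.78 (adjusted p = 6.43e-07) in Adult minus L4. *chil-28*, annotated as a pseudogene, was at 3.11, 3.40, 3.31, 3.27 and 3.31 in L4, 3.30, 3.35, 3.27, 3.50 and 3.33 in L4-lethargus, and 3.45, 4.08, 3.58, 3.35 and 3.76 in Adult, with a difference of 0.36 (adjusted p = 0.0234) in Adult minus L4. The Adult arrays of *chil-27* were above all others, while those of *chil-28* overlapped with the other stages. *chil-7* was at 3.11, 3.15, 3.31, 3.19 and 3.33 in L4, 3.36, 3.45, 3.49, 3.59 and 3.60 in L4-lethargus, and 3.77, 3.99, 3.94, 3.59 and 3.52 in Adult, with 0.54 (adjusted p = 0.000226) in Adult minus L4. *chil-5* was at 4.31, 4.39, 4.25, 3.80 and 4.24 in L4, 4.70, 4.62, 4.85, 4.36 and 4.62 in L4-lethargus, and 4.48, 4.80, 4.70, 4.73 and 4.76 in Adult, with 0.44 (adjusted p = 0.0132) in L4-lethargus minus L4 and 0.50 (adjusted p = 0.00227) in Adult minus L4. *chil-7* in L4 lay below all arrays of both other stages and *chil-5* in L4 below all Adult arrays. *chil-16* was at 3.61, 4.32, 3.90, 3.93 and 3.71 in L4, 3.90, 3.86, 3.91, 3.64 and 3.78 in L4-lethargus, and 4.14, 4.29, 4.06, 4.21 and 4.27 in Adult, with -0.38 (adjusted p = 0.0163) in L4-lethargus minus Adult. *chil-17* was at 3.32, 3.38, 3.36, 3.18 and 3.35 in L4, 3.30, 3.57, 3.57, 3.70 and 3.91 in L4-lethargus, and 3.43, 3.82, 3.81, 3.57 and 3.60 in Adult, with 0.33 (adjusted p = 0.0254) in Adult minus L4. For *chil-16* the L4-lethargus arrays lay below every Adult array, and for *chil-17* all L4 arrays did. *chil-18* was at 3.68, 3.62, 3.53, 3.77 and 3.60 in L4, 3.83, 4.02, 3.94, 3.82 and 4.03 in L4-lethargus, and 3.81, 3.88, 3.92, 4.12 and 3.65 in Adult, with 0.29 (adjusted p = 0.0336) in L4-lethargus minus L4. *chil-2* was at 2.99, 3.19, 2.94, 3.18 and 3.10 in L4, 3.04, 3.08, 3.24, 3.24 and 3.18 in L4-lethargus, and 3.24, 3.46, 3.39, 3.43 and 3.25 in Adult, with 0.27 (adjusted p = 0.0122) in Adult minus L4. Of the other calls, that of *chil-18* was lost with median-centring (adjusted p = 0.097) and quantile normalization repeated (0.061), and that of *chil-16* with cyclic loess (0.054). Some calls hung on single arrays. That of *chil-18* was lost without any one of L4 replicates 1, 2, 3 and 5 and L4-lethargus replicates 2, 3 and 5 (adjusted p = 0.0522 to 0.0917), that of *chil-17* without L4 replicate 4 or Adult replicate 2 or 3 (0.0609 to 0.0744), and that of *chil-28* without L4 replicate 1 or Adult replicate 5 (0.0614 to 0.0659).

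Most members lie on 1 chromosome in the *C. elegans* RefSeq gene table for WBcel235, which was used for names and gene order alone because these sources do not state the build behind the array's probes. Of the 35 genes of these names, 26 lie on chromosome II, 1 on III, 2 on IV, 4 on V and 2 on X. A run of 13 *chil* genes on chromosome II, from *chil-13* to *chil-27* with at most 10 genes between neighbours, had 10 measured members, of which 3 (*chil-13*, *chil-22* and *chil-23*) were above background. *chil-22* and *chil-23* are adjacent, with 0 genes between them, and their stage values differed. *chil-23* was lower in Adult than in both other stages, and *chil-22* had its highest mean in Adult. A second run of 9 genes, from *chil-9* to *chil-2*, was measured in full, and only *chil-8* was above background there, although *chil-7* and *chil-2* flank it directly. Probe sets of related genes can share probes. Of the 32 members, 8 were read from probe sets of a type that can, including *chil-13*, *chs-2*, *cht-1* and *chil-8* among those above background.

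Genes of 3 lists, on chitin synthesis, the eggshell, and hexosaminidases with a deacetylase-like gene, were read in the same fit. Whether the product of each listed gene acts on chitin was not measured here. The members of 3 lists were taken whole, and the largest differences were then named. Of the chitin synthesis list without *chs-2*, 6 of 9 genes were measured (*uap-1*, *agm-1* and F21D5.1 were not matched by symbol). In L4-lethargus against L4, 3 were higher and 1 lower. In L4-lethargus against Adult, 0 were higher and 5 lower, and in Adult against L4, 5 were higher and 1 lower. Those are 66.7%, 83.3% and 100% of the 6, where 30.9%, 57.0% and 59.4% of all probe sets were called. *chs-1*, the eggshell chitin synthase, had means of 9.71 ± 0.28 in L4, 11.06 ± 0.22 in L4-lethargus, and 12.40 ± 0.17 in Adult. It was higher in L4-lethargus than in L4 by 1.35 (adjusted p = 1.45e-06), and Adult minus L4 was 2.69 (adjusted p = 1.18e-10), or 6.47-fold, against a difference of -0.70 for *chs-2*. *gna-2*, a glucosamine-phosphate N-acetyltransferase known for its role in eggshell formation, had a mean of 11.32 ± 0.22 in Adult, with Adult minus L4 at 3.32 (adjusted p = 1.15e-09) or 9.98-fold. *gfat-2*, one of the genes for the first enzyme of hexosamine synthesis, gave 3.02 (adjusted p = 1.06e-09) in Adult minus L4, or 8.11-fold, and *gfat-1* gave 1.29 (adjusted p = 3.2e-08). The other probe set of *gfat-2* gave 0.94 (adjusted p = 1.14e-05) in Adult minus L4, at least 1.88-fold. In L4-lethargus minus L4 it was not called, at 0.28 (adjusted p = 0.193), where the one counted was called at 1.79 (adjusted p = 1.62e-06). *gna-1*, named after its values were seen as the 1 gene lower in L4-lethargus than in L4, was at -1.24 (adjusted p = 5.69e-06) there and -1.06 (adjusted p = 1.18e-05) in Adult minus L4.

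All 7 chitin-binding and chitin synthase partners of the eggshell were measured. All 7 were higher in L4-lethargus than in L4 and in Adult than in L4, and 6 were lower in L4-lethargus than in Adult. Over all probe sets, the shares were 15.6%, 31.4% and 31.7%. For *mbk-2* the calls depended on the probe set. The one counted is of a type that can share probes and gave 0.54 (adjusted p = 3.76e-05) in L4-lethargus minus L4. Its probe set of the other type gave 0.15 (adjusted p = 0.643) there, and the remaining one 0.52 (adjusted p = 0.00116). In L4-lethargus minus Adult the one counted was not called (adjusted p = 0.0608), and the others were called lower (0.000987 and 0.0245). *egg-2* and *egg-1* encode membrane proteins of the oocyte. *egg-2* had means of 8.28 ± 0.49 in L4, 10.18 ± 0.34 in L4-lethargus, and 11.89 ± 0.18 in Adult, with Adult minus L4 at 3.61 (adjusted p = 4.43e-10) or 12.2-fold, and *egg-1* was at 3.58 (adjusted p = 2.23e-09) or 11.9-fold. *egg-3*, which anchors the eggshell synthase at the oocyte cortex, gave 3.43 (adjusted p = 4.99e-11) and *cpg-2*, a chitin-binding proteoglycan of the eggshell, gave 2.70 (adjusted p = 1.9e-08) in the same comparison. The oocyte and eggshell markers above moved in the same order of stages; their part in these results was not tested. Of the hexosaminidases and the deacetylase-like gene, 5 of 7 were measured (*hex-4* and F48E3.8 were not matched by symbol). In L4-lethargus against L4, 2 were higher and 1 lower. In L4-lethargus against Adult, 3 were higher and 1 lower, and in Adult against L4, 2 were higher and 3 lower. Those are 60%, 80% and 100% of the 5, where 30.9%, 57.0% and 59.4% of all probe sets were called. The 1 lower in L4-lethargus than in L4 was *hex-1*, at -0.31 (adjusted p = 0.0219). Its other probe set, of a type that can share probes, gave -0.22 (adjusted p = 0.178) there. In L4-lethargus minus Adult that other probe set was called higher (adjusted p = 0.006), and the one counted was not called (0.09). *hex-5* had means of 6.65 ± 0.27 in L4, 8.53 ± 0.27 in L4-lethargus, and 7.33 ± 0.08 in Adult, *hex-2* of 10.57 ± 0.11 in L4, 10.77 ± 0.11 in L4-lethargus, and 8.93 ± 0.09 in Adult and *hex-3* of 6.76 ± 0.17 in L4, 6.73 ± 0.17 in L4-lethargus, and 7.60 ± 0.11 in Adult. *hex-5* was called higher in L4-lethargus than in both other stages, *hex-2* lower in Adult than in both, and *hex-3* higher in Adult than in both. *lgx-1*, which resembles chitin deacetylases, had means of 6.58 ± 0.73 in L4, 8.33 ± 0.67 in L4-lethargus, and 5.59 ± 0.30 in Adult, and L4-lethargus minus L4 was 1.75 (adjusted p = 0.00104). That probe set is of a type that can share probes with other transcripts, as are those used for *hex-5*, *gfat-1*, *egg-3* and *cpg-2*. The other *lgx-1* probe set is not of that type. It had the opposite sign in L4-lethargus minus L4, at -1.32 (adjusted p = 0.0477), so the direction of *lgx-1* in that comparison is not settled. Both *lgx-1* probe sets gave a lower Adult level than L4-lethargus, with the first at 2.74 (adjusted p = 4.52e-06) and the other at 1.30 (adjusted p = 0.0307).

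**Figure D4:**
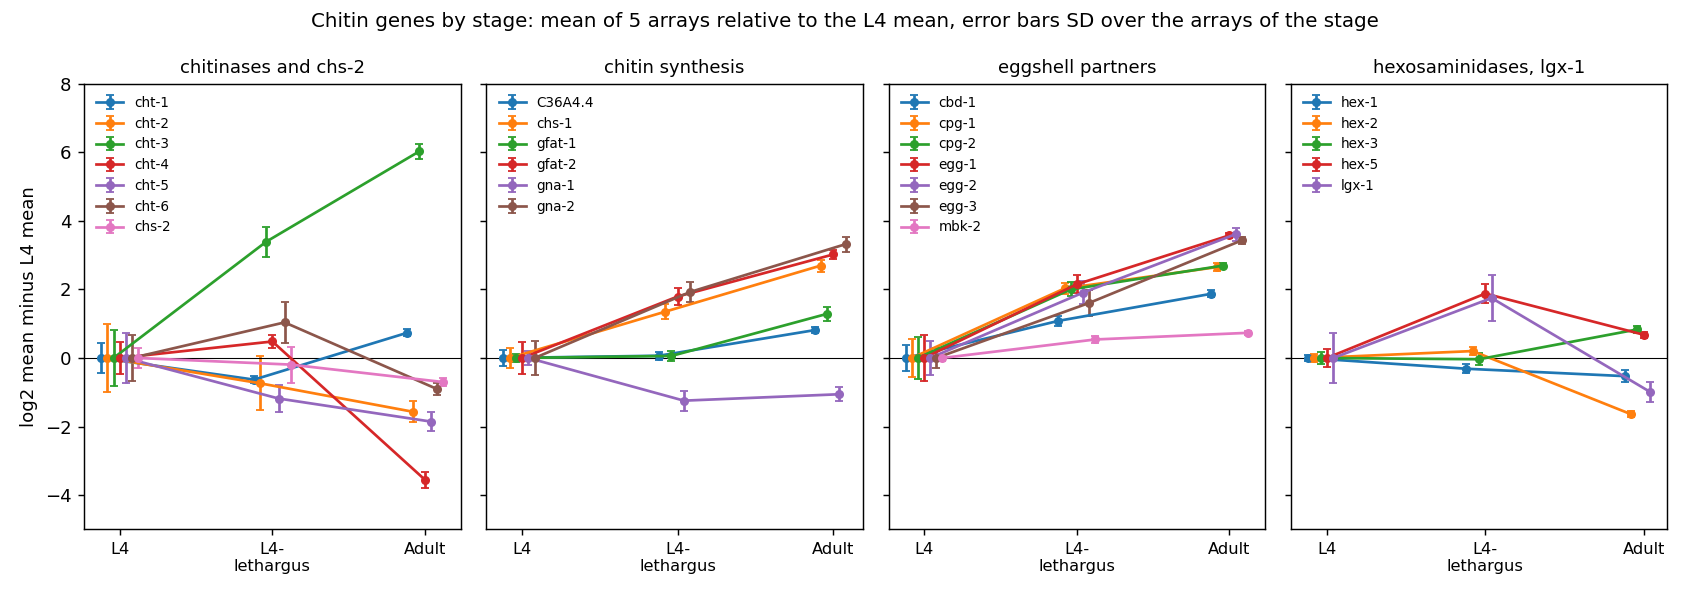
Mean log2 level minus the L4 mean of the same gene (y axis) in L4, L4-lethargus and Adult (x axis) for the 6 *cht* genes with *chs-2* and for 3 gene lists, with error bars for the SD over 5 arrays of the stage. The eggshell list moves upward as a whole, while the chitinases spread in both directions, with *cht-3* highest and *cht-4* lowest in Adult.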

How the data were processed

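RNA was amplified and hybridised to Affymetrix *C. elegans* Genome Arrays. The deposited values are log2 expression levels per probe set made by the authors with RMA, per the submitters' processing notes (version not stated). These sources do not state the build behind the probe annotation. RMA makes array distributions similar, so a change of total RNA cannot be read, and it understates folds of dim genes. The number of arrays limits the precision.

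Of 22625 probe sets, 77 controls were excluded from testing, 20766 of the remaining 22548 named 1 gene, 887 several and 895 none. A gene was read from its single-gene probe set with the highest mean. One fit in limma 3.58.1 (R 4.3.3, lmFit and eBayes) gave a mean to each stage over 15 arrays. Each p was doubled, adjusted by Benjamini-Hochberg over 22548 probe sets and called at 0.05. R/maanova with permutation p-values, named in the series design, was not run. The procedure was tested on simulated data. Replicate numbers did not pair the samples (correlations of deviations between same-numbered arrays, -0.24 to 0.132). No 2 arrays held more than 180 identical values.

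The member rule, by gene symbol, and the gene lists and background bound were chosen with earlier results of these data known. Levels were given by name for members above background or called in at least 1 comparison, with array values for those called. The other members were given by counts and ranges. Per pathway list, up to 4 called genes with the largest difference were named. *gna-1* was added after its values were seen, and *mbk-2* and *hex-1* for their probe sets. Pathway lists do not count *chs-2*. Alternatives were another scaling, dropping probe sets dimmer on average than the 40th percentile, undoubled p-values and 2 stages only. Others were a replicate block, leaving out each array and other rules for probe sets. A log2 difference of at least 1 was applied to counts of members only. Statements on how the calls of single genes held leave it out. Figures were drawn with matplotlib 3.10.9.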

Additional observations from a re-analysis of the deposited data

Results flagged for a closer look

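A single array stood far from the other 4 of its stage, by the gap to its nearest neighbour as a share of the range, in 9 of 108 sets of 5 arrays tested, where chance gives about 1 in 20. All values are log2 levels. Among the members, *chil-24* was 7.21 in L4-lethargus replicate 1, below the other L4-lethargus arrays at 7.53 to 7.62; *cht-6* was 6.09 in Adult replicate 2, above the other Adult arrays at 5.66 to 5.72. *cht-1* was 5.82 in L4-lethargus replicate 5, above the other L4-lethargus arrays at 5.55 to 5.62. *chil-5* was 3.80 in L4 replicate 4, below the other L4 arrays at 4.24 to 4.39. *chil-17* was 3.18 in L4 replicate 4, below the other L4 arrays at 3.32 to 3.38. Both *chil-5* and *chil-17* lie under the background bound. Among the genes of the pathway lists, *gna-2* was 10.95 in Adult replicate 2, below the other Adult arrays at 11.34 to 11.49. *egg-2* was 12.21 in Adult replicate 2, above the other Adult arrays at 11.78 to 11.86. *egg-3* was 10.86 in Adult replicate 5, above the other Adult arrays at 10.64 to 10.68. *hex-5* was 7.47 in Adult replicate 2, above the other Adult arrays at 7.29 to 7.29. Adult replicate 2 was the far array in 4 of the 9 sets.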

How the results depend on the processing

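Of 1614 alternative values for the members named, 1490 kept their direction and side of the threshold, 51 no longer passed, 56 newly passed, 17 changed sign without passing, and 0 reversed. Some of these outcomes were fixed in advance. Only *cht-1* and *cht-5* had a second probe set, so other rules for probe sets returned the main differences for the remaining members. Undoubled p-values could not lose a call. Counts of alternatives given by gene include these settings. Among the other genes, *lgx-1* reversed in L4-lethargus minus L4, at -1.32 with its probe set of largest variance. Causes were not tested unless the setting itself gives them. Counts of members moved as follows. With median-centring, L4-lethargus against Adult had 22 called, 19 of them lower and 10 of them above background, and Adult against L4 had 21 higher and 4 lower. Calls over all probe sets rose as well in these comparisons with median-centring. Quantile normalization repeated gave 4 lower in Adult against L4. The dim filter left 9 members tested, so fewer could be called. L4-lethargus against L4 then had 4 called (2 higher and 2 lower), L4-lethargus against Adult 3 called (1 lower, 3 above background), and Adult against L4 5 called (1 higher and 4 lower, 5 above background). With p-values not doubled, less strict by construction, L4-lethargus against L4 had 14 called, 10 higher, and L4-lethargus against Adult 14 called, 5 higher and 9 lower. With a log2 difference of at least 1, L4-lethargus against L4 had 3 called (2 higher and 1 lower, 3 above background), L4-lethargus against Adult 3 lower, and Adult against L4 6 called (2 higher and 4 lower, 6 above background).

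Leaving out each array in turn, members called were 5 to 11 in L4-lethargus against L4 (2 to 7 higher, 3 to 5 lower, 4 to 7 above background), 8 to 10 in L4-lethargus against Adult (3 to 4 higher, 5 to 7 lower, 6 to 7 above background) and 15 to 21 in Adult against L4 (9 to 14 higher, 5 to 9 lower, 9 to 13 above background). Calls over all probe sets were 6103 to 7962, 12004 to 13318 and 12463 to 13659 in these comparisons. With replicate number as a block, a replicate block for arrays that share only a number, members called were 6, 8 and 17, and calls over all probe sets 6438, 12469 and 12941. The block cost *chil-14* (adjusted p = 0.0536) and *chil-18* (0.0686) their calls in L4-lethargus against L4, and 0 of 15 arrays correlated best with their own number. Slide or scan as a block was not run. Signal over background limits the 17 *chil* genes under the bound.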

Other observations

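Some arrays took the extreme place of their stage for many of the 12 called members above background. L4-lethargus replicate 1 was the highest L4-lethargus array for 6 of them, where it was for 22.2% of all probe sets. Replicates 1 and 3 of L4-lethargus were together its 2 highest arrays for 5 of the 12 (*chil-14*, *chs-2*, *cht-6*, *cht-5* and *cht-2*), where they were for 9.76% of all probe sets. L4 replicate 2 was the lowest L4 array for 7 of the 12, where it was for 21.3% of all probe sets. Adult replicate 2 was the highest Adult array for 8 of the 12, where it was for 46.3% of all probe sets. The pools behind these arrays were not described further in the labels used here.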
